A study of Mus musculus with 47 samples.

Results

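Genes of cell division and DNA replication were described in mouse liver: Cdk1, Aurkb, Birc5, Top2a, Mcm6, Prim1, Rrm2, Tk1 and Ccnb1. A gene was included when a probeset of the deposited table carried its symbol in the platform annotation, and its brightest probeset was used. Of the 9 named genes 8 were measured, among 6889 genes and 9815 transcripts in all. Ccnb1 was not analysed here. The livers came from 47 hairless SKH:QS mice, all female and 8 weeks old at entry, and each liver was hybridised to 1 Affymetrix Mouse Gene 1.0 ST array. Mice were handled once a week, for 30 treatments over 36 weeks, with a collar against licking, and the skin was washed after each treatment. The groups were ZnO-UVR (sunscreen with ZnO nanoparticles, n = 6), ZnO + UVR (the same with 29 kJ/m2 of ultraviolet radiation, UVR, after each application, n = 5), TiO2-UVR (sunscreen with TiO2 nanoparticles and organic filters, n = 6), TiO2 + UVR (the same with UVR, n = 6), Organic-UVR (sunscreen with organic filters alone, n = 6), Organic + UVR (the same with UVR, n = 6), Control + UVR (UVR without sunscreen, n = 6) and Control-UVR (neither, n = 6). Mice came from 1 inbred colony and the sources disagree on whether they were housed singly or in groups.

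Most hepatocytes of an adult liver rest outside the cell cycle, and they can return to it after loss of tissue. Dividing cells of the liver also include immune cells and cells of its vessels. On entry into S phase, E2F factors raise genes that make DNA and its building blocks, and later genes of mitosis rise through promoter elements named the CCAAT box, bound by NF-Y, and the cell cycle homology region (CHR), bound by the MuvB complexes.

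Cdk1 is the kinase that drives entry into mitosis. Aurkb is the kinase and Birc5 (survivin) a further subunit of the chromosomal passenger complex, which corrects the attachment of chromosomes to the spindle. Top2a untangles DNA strands by cutting and rejoining both of them. Mcm6 is a subunit of the helicase that opens DNA at the replication fork, and Prim1 is the catalytic subunit of primase, which makes the short RNA primers. Rrm2 is a subunit of ribonucleotide reductase, and Tk1 phosphorylates thymidine; both feed the pool of deoxynucleotides.

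Promoters are shown for the genes on which the results below turn: Top2a, Mcm6, Rrm2 and Birc5, which were high together in 1 liver, and Prim1, which differed between groups. Of the 8 genes 7 matched a RefSeq promoter (build GRCm38.p6): Cdk1, Top2a, Tk1, Rrm2, Birc5, Mcm6 and Prim1. A window of 250 bases before to 50 after the start was searched on both strands for the CCAAT box (CCAAT), the CHR core (TTTGAA or TTCGAA) and E2F cores (TTTCCCGC, TTTGGCGC, TTTCGCGC or TTTGCCGC). The 250 bases before the start are printed, with these letters in capitals; no gene had a match in the 50 bases after it.
Top2a (chr11:99024190-99024439, minus strand): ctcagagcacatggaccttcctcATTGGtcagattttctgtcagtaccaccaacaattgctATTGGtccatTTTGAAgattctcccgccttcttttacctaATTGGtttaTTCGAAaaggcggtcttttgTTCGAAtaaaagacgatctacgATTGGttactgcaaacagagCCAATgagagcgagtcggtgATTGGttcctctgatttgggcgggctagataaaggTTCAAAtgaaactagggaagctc
Mcm6 (chr1:128359706-128359955, minus strand): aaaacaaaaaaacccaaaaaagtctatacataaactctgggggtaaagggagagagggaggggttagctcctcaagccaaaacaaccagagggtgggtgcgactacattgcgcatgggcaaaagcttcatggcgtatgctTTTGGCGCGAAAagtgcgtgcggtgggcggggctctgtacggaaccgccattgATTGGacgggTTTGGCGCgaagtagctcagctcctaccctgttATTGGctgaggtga
Rrm2 (chr12:24708004-24708253, plus strand): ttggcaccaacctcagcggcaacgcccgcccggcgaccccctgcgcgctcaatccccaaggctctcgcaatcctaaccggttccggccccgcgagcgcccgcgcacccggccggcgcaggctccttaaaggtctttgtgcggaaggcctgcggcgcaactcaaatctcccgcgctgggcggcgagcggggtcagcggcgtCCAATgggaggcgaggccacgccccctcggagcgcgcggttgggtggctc
Birc5 (chr11:117848987-117849236, plus strand): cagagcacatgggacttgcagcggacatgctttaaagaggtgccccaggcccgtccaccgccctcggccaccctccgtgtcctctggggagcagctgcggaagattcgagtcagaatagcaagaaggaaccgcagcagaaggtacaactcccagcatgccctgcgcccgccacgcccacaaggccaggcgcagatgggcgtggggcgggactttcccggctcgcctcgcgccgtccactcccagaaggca
Prim1 (chr10:128014965-128015214, plus strand): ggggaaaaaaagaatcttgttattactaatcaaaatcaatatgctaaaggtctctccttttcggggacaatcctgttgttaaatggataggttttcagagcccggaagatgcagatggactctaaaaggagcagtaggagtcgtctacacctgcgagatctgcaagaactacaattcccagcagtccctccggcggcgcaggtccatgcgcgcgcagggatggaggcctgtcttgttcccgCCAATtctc

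Top2a held 6 CCAAT boxes and 4 CHR cores and no E2F core. Mcm6 held 2 CCAAT boxes and 3 E2F cores, of which the first pair overlapped (matches begin at -110 and -106 from the start). Rrm2 and Prim1 held 1 CCAAT box each, at -50 and -9, and Birc5 held none of the motifs. Cdk1, not printed, held 3 CCAAT boxes, 2 CHR cores and 1 E2F core, while Tk1 held none. Among all 32851 RefSeq mouse promoters of this length 37.4% held a CCAAT box, 19.2% a CHR core and 2.3% an E2F core. The matches describe letters and not binding.

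Levels are log2 values after robust multi-array average (RMA) and are compared within a gene only, since probesets differ in brightness. The median over all transcripts was 5.24. Over all arrays Cdk1 had a mean log2 level of 4.02, Top2a 4.27, Rrm2 4.64, Birc5 4.80 and Aurkb 5.19, which lie below that median, against 5.82 for Mcm6, 6.27 for Prim1 and 6.85 for Tk1. Tk1 and Birc5 lie close to each other on chromosome 11, at chr11:117815519-117826087 and chr11:117849237-117855743 (GRCm38.p6). Array medians ran from 5.12 to 5.45. One array stood apart, Organic-UVR replicate 1, whose slope on the mean array was 0.77, against 0.90 to 1.07 in the others. The liver label was checked against markers. The 4 measured hepatocyte markers averaged 11.3 to 12.2 on the log2 scale in every liver. Of the 8 marker lists, 35 genes were measured. In a piece of liver, more cells of a type and more RNA per cell cannot be told apart.

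**Figure D1:**
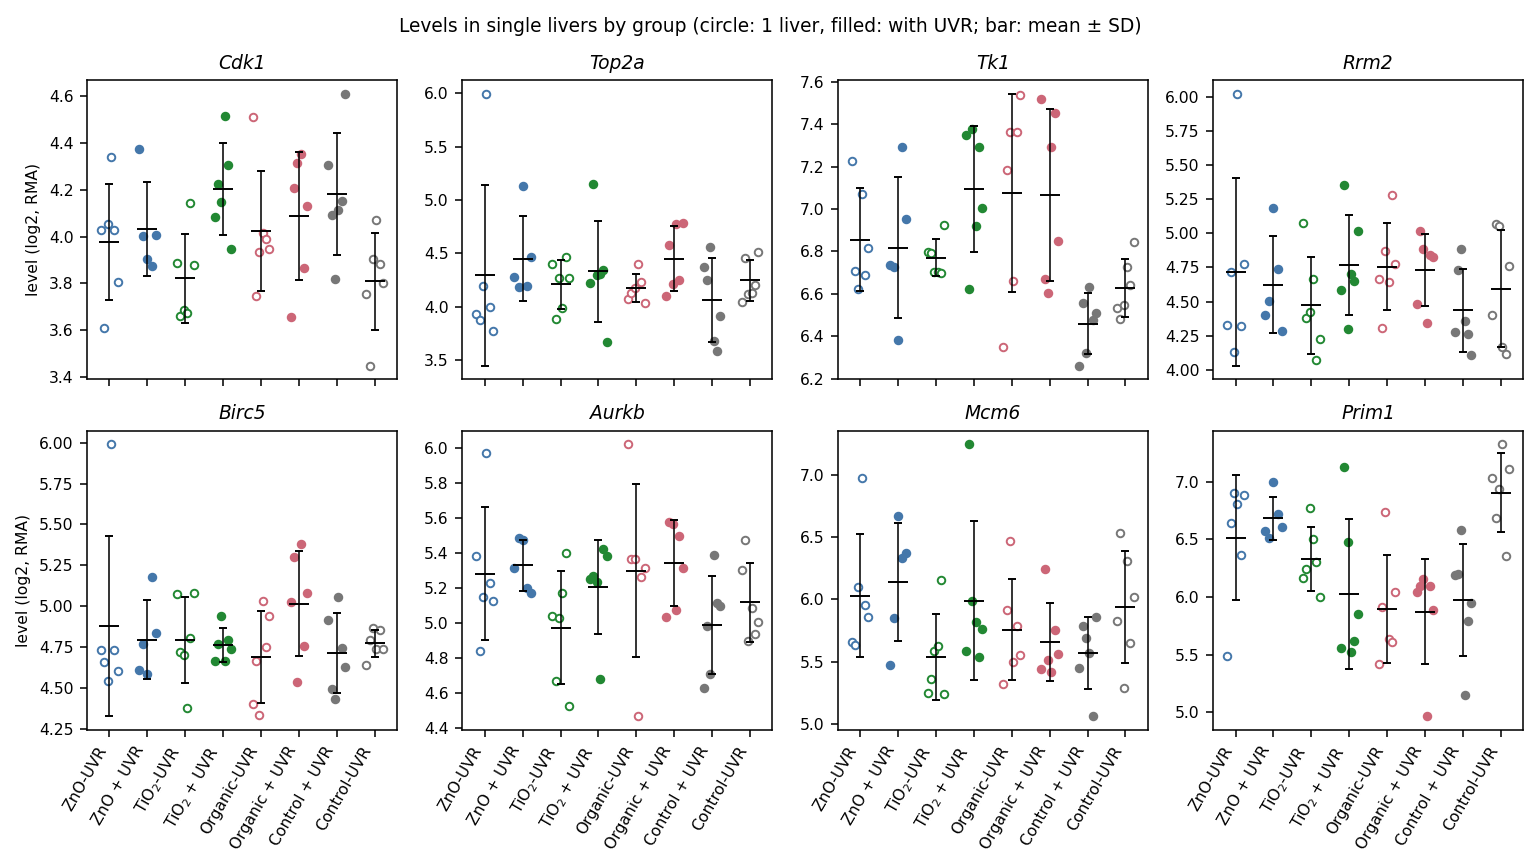
Log2 RMA level (y axis) of each of the 8 measured genes in single livers, by group (x axis); each circle is 1 liver, filled where the group received UVR, and the bars give mean ± SD. Prim1 was highest in Control-UVR livers, and 1 ZnO-UVR liver stood far above its group for Top2a, Rrm2, Birc5 and Mcm6.

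Prim1 was the member whose level differed most between groups. It fell in Organic + UVR, Organic-UVR and TiO2 + UVR livers relative to Control-UVR livers, to 0.49, 0.50 and 0.54 of the Control-UVR level. The Prim1 log2 level in Organic + UVR livers was 4.97 at the lowest, 6.07 at the median and 6.16 at the highest, against 6.35, 6.98 and 7.32 in Control-UVR livers. These groups did not overlap. The log2 difference was -1.03 ± 0.22 (SE), with a limma adjusted p of 0.0366 over all 9815 transcripts. Without Organic + UVR replicate 4, the lowest liver, it was -0.87 (limma adjusted p = 0.228), and the call was also lost without Control-UVR replicate 4 or 6 (limma adjusted p = 0.119 and 0.121). In Organic-UVR livers Prim1 lay at 5.42, 5.77 and 6.74 (lowest, median, highest), so that 5 of 6 livers were below every Control-UVR liver. That difference was -1.01 ± 0.22 (SE; limma adjusted p = 0.0144), and it was -0.95 (limma adjusted p = 0.0418) without Organic-UVR replicate 1, the array that stood apart.

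TiO2 + UVR livers had Prim1 levels of 5.52, 5.73 and 7.13 (lowest, median, highest). Of these 6 livers 4 lay below all Control-UVR livers, and replicate 2, at 7.13, lay near the top of the Control-UVR range. The difference from Control-UVR was -0.88 ± 0.22 (SE; limma adjusted p = 0.0531); without TiO2 + UVR replicate 2 it was -1.10 (limma adjusted p = 0.00746), and without Control-UVR replicate 4 it was -0.74 (limma adjusted p = 0.217), the highest adjusted p of 6 livers whose absence ended the call. Control + UVR livers had 5.15, 6.07 and 6.58, of which 5 of 6 were below every Control-UVR liver. Here the difference was -0.93 ± 0.22 (SE) and missed the threshold (limma adjusted p = 0.125).

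In the remaining groups Prim1 stayed nearer to Control-UVR. Even so, 4 of 6 TiO2-UVR livers lay below every Control-UVR liver, the same count as in TiO2 + UVR, and 1 of 6 ZnO-UVR livers did. TiO2 + UVR livers differed from TiO2-UVR livers by -0.30 ± 0.22 (SE, limma adjusted p = 0.967). TiO2-UVR livers lay at 6.00, 6.27 and 6.77 (difference -0.57 ± 0.22 SE; limma adjusted p = 0.968), and ZnO-UVR livers at 5.48, 6.72 and 6.90 (difference -0.39 ± 0.22 SE; limma adjusted p = 1.00). The 5 ZnO + UVR livers had Prim1 levels of 6.57, 6.51, 6.99, 6.71 and 6.60, all within the Control-UVR range (difference -0.22 ± 0.23 SE, 95% interval -0.68 to 0.24). Neighbouring groups in the order of Prim1 means differed by less than the larger of their SDs throughout, from 5.87 in Organic + UVR to 6.90 in Control-UVR livers. The comparisons with Control-UVR share those 6 livers, so that their differences are not independent of each other.

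Mcm6, the other gene of the replication fork, passed the threshold in no comparison. Mcm6 lay at 5.42, 5.54 and 6.24 (lowest, median, highest) in Organic + UVR livers, at 5.24, 5.47 and 6.16 in TiO2-UVR livers and at 5.06, 5.63 and 5.86 in Control + UVR livers, against 5.28, 5.93 and 6.54 in Control-UVR livers. All of these groups overlapped. The largest difference of Mcm6 from Control-UVR was -0.40 ± 0.23 (SE) in TiO2-UVR livers (95% interval -0.86 to 0.05; limma adjusted p = 0.968). Between UVR-exposed groups Mcm6 was at 5.47, 5.85, 6.33, 6.37 and 6.67 in the ZnO + UVR livers, in order of size, against 5.06 to 5.86 in Control + UVR livers (difference 0.55 ± 0.24 SE; limma adjusted p = 0.815).

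Tk1 rose in TiO2 + UVR livers relative to Control + UVR livers, by 1.55-fold. Tk1 log2 levels in TiO2 + UVR livers were 6.62 at the lowest, 7.15 at the median and 7.38 at the highest, against 6.26, 6.49 and 6.63 in Control + UVR livers. The groups met only through TiO2 + UVR replicate 2, the lowest of its group. The difference was 0.64 ± 0.16 (SE; limma adjusted p = 0.0639), and it was above 0.1 after leaving out any 1 of 9 of the 12 livers (limma adjusted p up to 0.232). Organic + UVR livers had Tk1 at 6.61, 7.07 and 7.52, of which 5 of 6 were above every Control + UVR liver (difference 0.61 ± 0.16 SE), but the limma adjusted p was 0.201.

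Against Control-UVR livers, where Tk1 lay at 6.48, 6.60 and 6.84 (lowest, median, highest), no group passed the threshold. The difference was 0.47 ± 0.16 (SE) in TiO2 + UVR livers (limma adjusted p = 0.299), 0.45 ± 0.16 in Organic-UVR livers (limma adjusted p = 0.141) and 0.44 ± 0.16 in Organic + UVR livers (limma adjusted p = 0.177). Organic-UVR livers spread most, with Tk1 levels of 6.35, 7.27 and 7.54, and the lowest was the array that stood apart. Without that array the difference was 0.61 (limma adjusted p = 0.0583). The lowest mean was that of Control + UVR (6.46), then Control-UVR (6.63) and TiO2-UVR (6.77), each step larger than the SDs of its groups, and from there on neighbours differed by less than their SD up to TiO2 + UVR (7.09).

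The other source of deoxynucleotides, Rrm2, passed the threshold in no comparison. Its difference from Control-UVR ran from -0.16 ± 0.22 (SE) in Control + UVR to 0.17 ± 0.22 in TiO2 + UVR livers. Rrm2 levels were 4.30, 4.68 and 5.35 (lowest, median, highest) in TiO2 + UVR livers and 4.11, 4.58 and 5.07 in Control-UVR livers, which overlapped over most of their range.

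Cdk1, a dim probeset, was highest in 2 of the UVR groups without passing the threshold. Its levels were 3.95, 4.19 and 4.52 (lowest, median, highest) in TiO2 + UVR livers and 3.82, 4.13 and 4.61 in Control + UVR livers, against 3.45, 3.84 and 4.07 in Control-UVR livers. In each of the 2 groups 5 of 6 livers exceeded every Control-UVR liver. The difference was 0.39 ± 0.13 (SE; limma adjusted p = 0.273) in TiO2 + UVR and 0.37 ± 0.13 (limma adjusted p = 0.271) in Control + UVR livers. TiO2 + UVR livers also stood 0.38 ± 0.13 (SE) above TiO2-UVR livers, where Cdk1 lay at 3.66, 3.78 and 4.14, with a limma adjusted p of 0.350. In ZnO + UVR and Organic + UVR livers the difference from their own group without UVR was 0.06 ± 0.14 and 0.06 ± 0.13 (SE). Their difference from Control-UVR was 0.22 ± 0.14 and 0.28 ± 0.13 (SE), with a limma adjusted p of 0.280 for Organic + UVR. Of the Organic + UVR livers 4 of 6 exceeded every Control-UVR liver, and of the ZnO + UVR livers 1 of 5 did.

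Neither subunit of the chromosomal passenger complex passed the threshold in a comparison. Aurkb levels were 5.04, 5.41 and 5.58 (lowest, median, highest) in Organic + UVR livers, against 4.90, 5.05 and 5.48 in Control-UVR livers (difference 0.23 ± 0.18 SE, 95% interval -0.14 to 0.60). Birc5 lay at 4.54, 5.05 and 5.38 in Organic + UVR livers, against 4.34, 4.71 and 5.03 in Organic-UVR livers, with 3 of 6 livers above that group. This difference was 0.33 ± 0.16 (SE; limma adjusted p = 0.998), and that from Control-UVR was 0.24 ± 0.16. Top2a group means ran from 4.06 in Control + UVR to 4.45 in ZnO + UVR livers, and its differences from Control-UVR lay between -0.19 and 0.20 with an SE of 0.24 or 0.25.

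**Figure D2:**
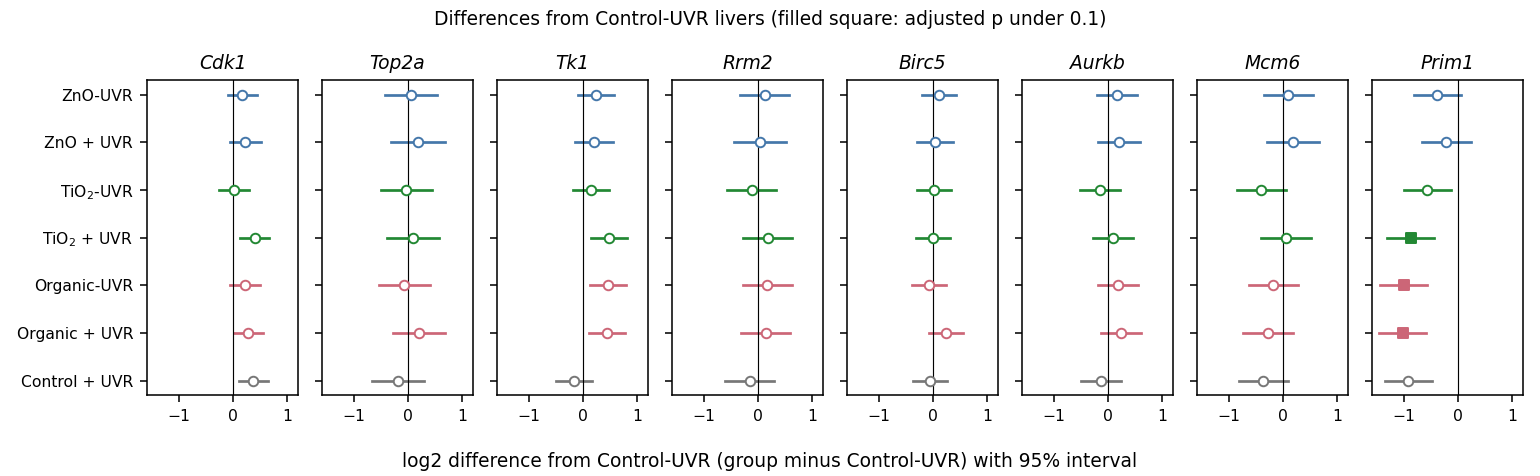
Log2 difference of each group from Control-UVR livers (x axis; group minus Control-UVR) with its 95% interval for the 8 genes, 1 panel each; filled squares passed an adjusted p of 0.1 in limma. Only the Prim1 differences of TiO2 + UVR (-0.88), Organic-UVR (-1.01) and Organic + UVR (-1.03) passed.

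Counts of called members are read against the share of all transcripts called in the same comparison. Against Control-UVR, 1 of 8 genes was called in Organic-UVR livers (Prim1, lower), where 3.27% of all transcripts were called. The count was 1 of 8 in Organic + UVR (Prim1, lower; 1.65% of all transcripts) and 1 of 8 in TiO2 + UVR livers (Prim1, lower; 0.693%). It was 0 of 8 in Control + UVR livers, where 0.0509% of all transcripts were called. There 2 of the genes, Prim1 and Cdk1, had an unadjusted p under 0.05, as had 1260 of all 9815 transcripts. In ZnO-UVR, ZnO + UVR and TiO2-UVR livers limma called 0 of 8 genes and 0% of all transcripts, with 0, 0 and 1 gene at an unadjusted p under 0.05. In the same order 149, 276 and 379 of all 9815 transcripts were under that p. One gene among 8 is too few for a statement on the genes together, and their median difference from Control-UVR lay between -0.16 in Control + UVR and 0.22 in Organic + UVR livers, against -0.00 to 0.03 for the median of all transcripts in the 7 comparisons.

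Between UVR and no UVR under the same sunscreen, limma called 0 of 8 genes for TiO2 (0.652% of all transcripts), for Organic (0%) and for ZnO (0%), with 1, 1 and 0 genes at an unadjusted p under 0.05. Of all 9815 transcripts 653, 333 and 215 were under it. Among groups that all received UVR, 1 of 8 was called in TiO2 + UVR against Control + UVR livers (Tk1, higher, with 0.703% of all transcripts). The count was 0 of 8 in Organic + UVR (0.0611%) and 0 of 8 in ZnO + UVR livers (0%). In the last 2 comparisons 1 and 3 genes had an unadjusted p under 0.05, against 712 and 579 of all 9815 transcripts. Whether the difference with UVR depended on the sunscreen was tested as an interaction. It was called for 0 of 8 genes with ZnO (0% of all transcripts), TiO2 (0.173%) and Organic (0%). An unadjusted p under 0.05 was found for 1, 3 and 1 genes, against 372, 833 and 729 of all 9815 transcripts. The largest interactions were those of Prim1 with ZnO (1.10 ± 0.31 SE; limma adjusted p = 0.985), Prim1 with Organic (0.91 ± 0.31; limma adjusted p = 0.598) and Mcm6 with TiO2 (0.83 ± 0.32; limma adjusted p = 0.408).

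Other genes of the cell cycle were taken from 5 lists, with 70 further genes measured once the 8 are left out. In Organic-UVR against Control-UVR livers 1 of the 70 rose and 1 fell (2.86% called, against 3.27% of all transcripts). Gtse1, a microtubule-binding protein of G2 and mitosis, rose by 0.42 on the log2 scale (limma adjusted p = 0.0751), and Dtymk, the thymidylate kinase that acts after Tk1, fell by 0.57 (limma adjusted p = 0.0369). In Organic + UVR livers 1 of the 70 was called (1.43%, against 1.65% of all transcripts). It was Zwint, a kinetochore protein, which fell by 0.55 (limma adjusted p = 0.0575). Both shares of the 70 were near that of all transcripts in the same comparison, and rest on too few genes to be told apart from it. In the other 11 comparisons and the interactions 0 of 70 were called, and 2 to 9 had an unadjusted p under 0.05. Among all 9815 transcripts 149 to 1260 were under that p in these comparisons. By list, 1 of 8 deoxynucleotide supply genes and 1 of 27 mitotic spindle genes were called in Organic-UVR livers, 1 of 27 mitotic spindle genes in Organic + UVR livers, and none of 16 replication origin and fork genes, of 6 cyclin and CDK genes or of 13 E2F, RB, MYB and FOXM1 regulators in any comparison. The median log2 difference of the 70 genes from Control-UVR ran from -0.06 in TiO2-UVR to 0.02 in TiO2 + UVR livers.

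Genes of the circadian clock were called in the comparisons in which Prim1 or Tk1 was called, and also in 2 comparisons and 1 interaction in which no member was. Of 10 measured clock genes 4 rose and 2 fell in Organic-UVR livers relative to Control-UVR, where 3.27% of all transcripts were called. Relative to the same livers 2 fell in Organic + UVR (1.65% of all transcripts) and 3 rose and 2 fell in TiO2 + UVR livers (0.693%). In TiO2 + UVR relative to Control + UVR livers 4 rose and 2 fell (0.703%). Without a called member, 4 rose and 2 fell in TiO2 + UVR relative to TiO2-UVR livers (0.652%). Also without one, 1 fell in Organic + UVR relative to Control + UVR livers (0.0611%). In the interaction of TiO2 and UVR 2 of the 10 were called (0.173% of all transcripts). They were Nr1d2 (2.13, limma adjusted p = 0.0123) and Hlf (0.99, limma adjusted p = 0.0897). Relative to Control-UVR, Nfil3, a repressor tied to the clock, fell by 1.15 on the log2 scale in Organic-UVR livers (limma adjusted p = 0.0189). Nfil3 fell by 1.14 in Organic + UVR livers (limma adjusted p = 0.0366). The activator Npas2 fell by 1.54 and 1.51 in the same comparisons (limma adjusted p = 0.0337 and 0.0575). Within groups, over 47 livers, Tk1 had its highest correlation among the clock genes with Tef (r = 0.604), a transcription factor that follows the clock, and Cdk1 its lowest with Hlf (r = -0.60), a related factor. Prim1 had r between -0.30 and 0.28 with the 10 clock genes. These are descriptions over livers, each on its own array. The part of the clock genes in the differences of Prim1 and Tk1 was not tested.

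Of the 35 marker genes of liver cell types, the hepatocyte gene Hal fell in Organic-UVR livers relative to Control-UVR (by 0.72 on the log2 scale, limma adjusted p = 0.0126). In TiO2 + UVR livers Hal fell relative to Control-UVR (by 0.75, limma adjusted p = 0.0120) and to Control + UVR livers (by 0.62, limma adjusted p = 0.0470). It also fell there relative to TiO2-UVR livers (by 0.85, limma adjusted p = 0.00144), a comparison without a called member. The bile duct gene Krt7 rose by 0.57 in Organic-UVR and by 0.37 in Organic + UVR livers, the stellate cell gene Colec11 fell by 0.36 in Organic-UVR livers and the endothelial gene Pecam1 fell by 0.66 in Organic + UVR livers, all under an adjusted p of 0.1 in limma. So 3 of 35 markers were called in Organic-UVR livers relative to Control-UVR, where 3.27% of all transcripts were called. Relative to the same livers 2 were called in Organic + UVR (1.65% of all transcripts) and 1 in TiO2 + UVR livers (0.693%). In TiO2 + UVR livers 1 was called relative to Control + UVR (0.703%) and 1 relative to TiO2-UVR livers (0.652%). Their part in the Prim1 and Tk1 differences was not tested.

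The largest departures of these genes were in single livers. In ZnO-UVR replicate 4 all 8 genes were above the mean of the other 5 ZnO-UVR livers, by a median of 0.98 on the log2 scale, the highest such median of the 47 livers. For 6 of the 8 genes it was the highest liver of its group, and for Top2a, Rrm2 and Birc5 the highest of all 47. Over all 6889 genes, 20.6% were highest of the group in that liver and 6.01% highest of all. Between 2789 and 2890 of the 6889 were above the mean of the other 5 livers.

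Top2a had a log2 level of 6.00 in ZnO-UVR replicate 4, against 3.77 to 4.19 in the other ZnO-UVR livers, 4.12-fold their mean. Rrm2 was at 6.02 against 4.13 to 4.78, 2.96-fold, and Birc5 at 5.99 against 4.54 to 4.74, 2.52-fold. Mcm6 stood at 6.98 against 5.63 to 6.10, or 2.20-fold. None of these 4 levels overlapped the other ZnO-UVR livers. Aurkb was at 5.97 against 4.84 to 5.38 and Cdk1 at 4.34 against 3.61 to 4.05, also the highest of the group. Tk1 at 7.07 and Prim1 at 6.80 lay inside the range of the other ZnO-UVR livers. The second Top2a probeset, which is dimmer (mean 2.08), was at 2.47 in this liver, against 1.72 to 2.01 in the other ZnO-UVR livers, and ranked 4 of 47.

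**Figure D3:**
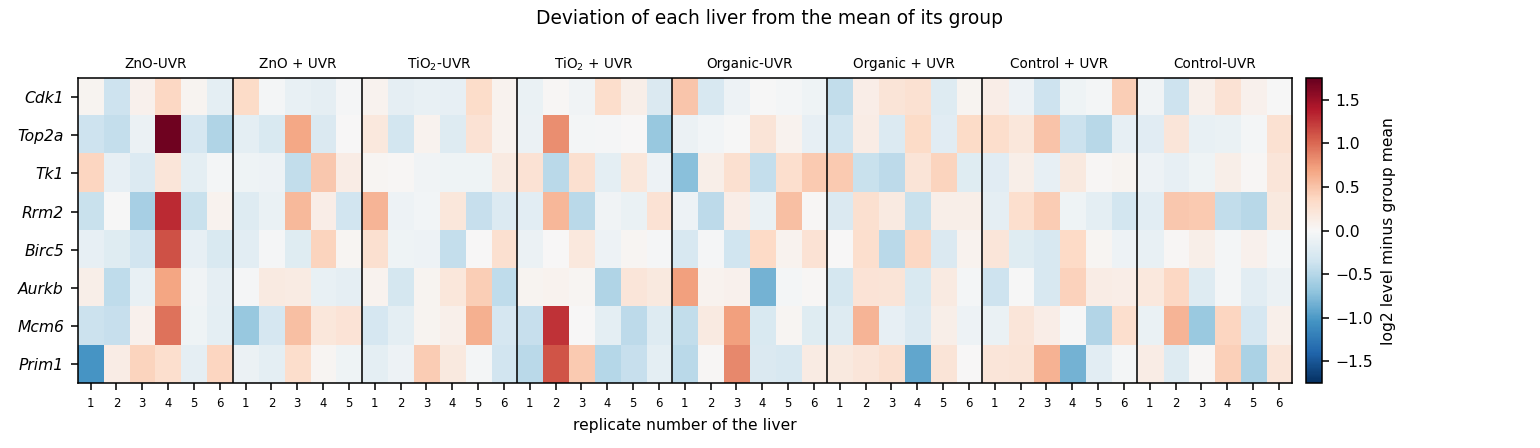
Log2 level of each gene (rows) in each of the 47 livers (columns, by group and replicate number) minus the mean of its group; red is above and blue below the group mean. The column of ZnO-UVR replicate 4 is above its group mean in all 8 rows, and TiO2 + UVR replicate 2 is high for Mcm6, Prim1, Top2a and Rrm2.

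Other cell cycle genes stood high in the same liver. Of the 70, 49 were above the mean of the other ZnO-UVR livers, against between 2789 and 2890 of all 6889 genes. Among the 70, 34 were the highest of the group (48.6%) and 12 the highest of all 47 livers (17.1%). Their median deviation was 0.24, the highest of the 47 livers. After quantile normalization the median was 0.25 and again the highest. Cdk4, the kinase of the G1 phase, was at 8.47 against 7.05 to 7.94 in the other ZnO-UVR livers. Pold2, a subunit of DNA polymerase delta, was at 7.86 against 6.38 to 7.14, and Aspm, a spindle pole protein, at 4.45 against 3.22 to 3.53. These 3 were the only of the 70 more than 1 log2 unit above the others, against 79 of all 6889 genes. By list, the median deviation in this liver was 0.35 for the cyclins and CDKs, 0.34 for origin and fork genes, 0.56 for deoxynucleotide supply, 0.22 for mitotic spindle genes and -0.01 for the E2F, RB, MYB and FOXM1 regulators.

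Markers of macrophages were also high in this liver, as were some of those of red cell precursors, sinusoidal endothelial cells and myeloid cells. All 3 measured markers of Kupffer cells, the macrophages of the liver, were the highest of all 47 livers in ZnO-UVR replicate 4. The macrophage receptor Marco was at 7.09 against 4.38 to 4.92 in the other ZnO-UVR livers, Cd68 at 8.84 against 6.78 to 7.52 and Timd4 at 7.60 against 6.35 to 7.14. The mean log2 level of the 3 was 7.84 in this liver and 5.75 to 6.94 in the other 46 livers. The red cell anion exchanger Slc4a1 was at 8.16 against 5.09 to 5.29, 7.98-fold, while Tfrc, the transferrin receptor and the other measured member of the erythroid list, was at 7.83 against 6.64 to 7.99. Over all genes the largest deviation was that of Cd24a, a surface protein of precursor and immune cells, at 8.73 against 4.41 to 5.03. The macrophage genes Lyz2 (10.5 against 7.86 to 8.25) and Spic (7.42 against 4.79 to 6.19) were also among the 15 largest. So were the fatty acid synthase gene Fasn (9.88 against 7.46 to 8.25) and Pnpla3 (7.45 against 5.63 to 5.98). Cd24a and these genes were named after their values were seen. All 6 endothelial markers lay above the mean of the other ZnO-UVR livers (5 of 6 after quantile normalization), and Pecam1, at 7.03 against 5.68 to 6.26, Oit3, at 7.08 against 6.12 to 6.69, and Stab1, at 5.92 against 5.39 to 5.70, were the highest of all 47. All 5 markers of neutrophils and myeloid precursors lay above that mean, and the granule protease gene Ctsg, at 5.58 against 3.69 to 4.77, and the myeloperoxidase gene Mpo, at 5.84 against 4.58 to 5.37, were the highest of all 47. The myeloid markers Retnlg (5.54 against 4.74 to 5.74) and Elane (5.02 against 4.70 to 5.16) lay inside the range of the other ZnO-UVR livers. So did the endothelial marker Stab2 (7.23 against 6.72 to 7.32). Between 2789 and 2890 of all 6889 genes lay above that mean too. The 4 hepatocyte markers had a median deviation of 0.11 and the 6 lymphocyte markers one of 0.12. The part of these cell types in the high levels was not tested.

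**Figure D4:**
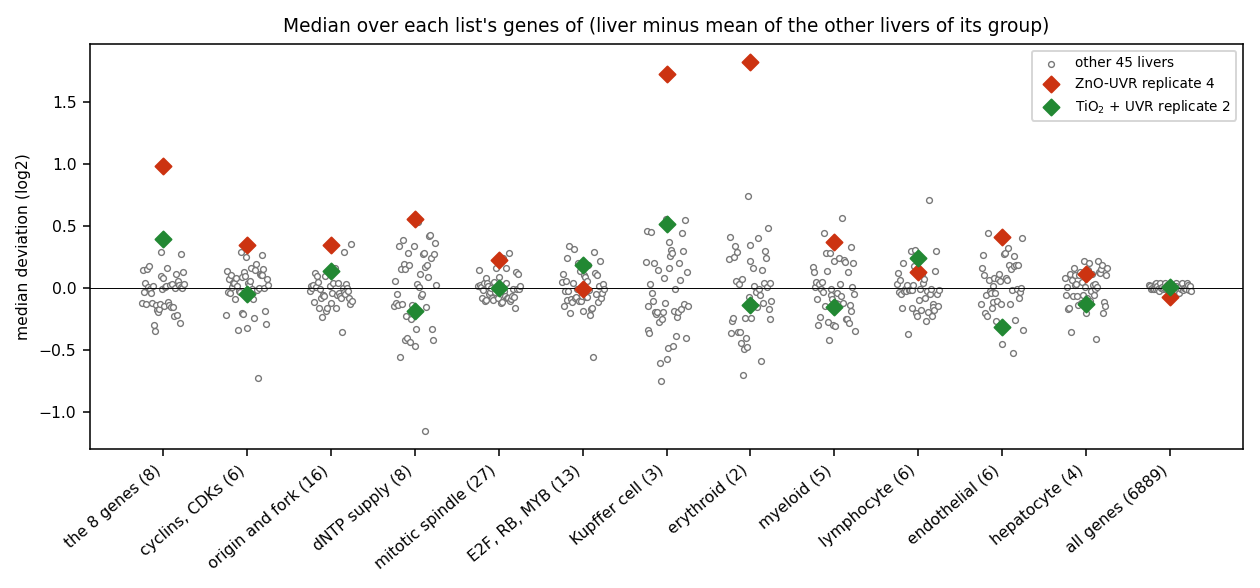
Median log2 deviation (y axis) of the genes of each list, with the number measured in brackets (x axis), for each of the 47 livers, taken as the liver minus the mean of the other livers of its group. ZnO-UVR replicate 4 (red) is highest for the 8 genes, at 0.98, and for the Kupffer cell (1.72) and erythroid (1.82) lists. The erythroid value rests on 2 genes, Slc4a1 (3.00) and Tfrc (0.64).

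TiO2 + UVR replicate 2 had the next highest median deviation of the 8 genes, 0.39. Mcm6 was at 7.25 there, the highest of all 47 livers, against 5.54 to 5.99 in the other TiO2 + UVR livers, and Prim1 at 7.13 against 5.52 to 6.48. Top2a, at 5.15 against 3.67 to 4.34, and Rrm2, at 5.35 against 4.30 to 5.02, were second of the 47 to ZnO-UVR replicate 4. Birc5 (4.77) and Aurkb (5.27) lay inside the range of the group, and Tk1 was lowest of the group. The 70 other cell cycle genes had a median deviation of 0.10. Of the Kupffer cell markers, Cd68 was at 8.61 against 6.50 to 7.62 and Timd4 at 7.10 against 6.28 to 6.94, while Marco, at 5.13 against 4.88 to 5.17, lay inside the range of the group. The lymphocyte marker Il7r was at 5.49 against 3.68 to 4.53, the highest of all 47 livers, and Ptprc, carried by all white blood cells, at 8.12 against 7.34 to 7.54, was second of the 47. All 6 endothelial markers lay below the mean of the other TiO2 + UVR livers, with Oit3, at 5.78 against 5.79 to 6.36, the lowest of all 47. Lyz2 was at 10.4 against 7.88 to 9.17, while Slc4a1 was at 5.16 against 5.24 to 5.36. The Kupffer cell markers averaged 6.94 in this liver, the highest outside ZnO-UVR replicate 4. The part of these cell types was not tested.

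Within groups, correlations of the deviations from the group mean were computed for 28 pairs of the 8 genes over 47 livers. Top2a and Mcm6 had r = 0.605 (permutation p = 4e-05, adjusted over the 28 pairs 0.0007) and rho = 0.431 (permutation p = 0.00266, adjusted 0.0372). Without ZnO-UVR replicate 4 this was r = 0.515 (adjusted p = 0.0035), and without the 2 livers farthest from the median of Top2a it was 0.406 and missed the threshold of 0.05 (adjusted p = 0.0531). Mcm6 and Prim1 had r = 0.567 (permutation p = 5e-05, adjusted 0.0007) and rho = 0.584 (permutation p = 3e-05, adjusted 0.00084), and r was 0.466 (adjusted p = 0.037) without the 2 livers farthest on Mcm6 and 0.57 (adjusted p = 0.00168) without ZnO-UVR replicate 4. Of the 5 pairs under an adjusted p of 0.05, Mcm6 and Prim1 was the only one that stayed there in every alternative.

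For 3 more pairs the adjusted p was under 0.05 for r and not for rho. Top2a and Rrm2 had r = 0.571 (permutation p = 0.00022, adjusted 0.00205) and rho = 0.28 (permutation p = 0.0562, adjusted 0.226). Top2a and Birc5 had r = 0.498 (permutation p = 0.00301, adjusted 0.0211) and rho = 0.296 (permutation p = 0.0434, adjusted 0.226), and Rrm2 and Mcm6 r = 0.402 (permutation p = 0.00566, adjusted 0.0317) and rho = 0.249 (permutation p = 0.0916, adjusted 0.257). Without ZnO-UVR replicate 4 their r was 0.298, 0.0647 and 0.246, with an adjusted p of 0.125, 0.72 and 0.197. With the means of the replicate numbers also taken out, Rrm2 and Mcm6 had r = 0.353 (adjusted p = 0.0624), the other 4 of the 5 pairs stayed under 0.05, and 2 more pairs came under it, Aurkb and Mcm6 (r = 0.419, adjusted p = 0.0172) and Cdk1 and Tk1 (r = -0.42, adjusted p = 0.017). Over the 28 pairs the median r was 0.19, and it was -0.07 without that liver.

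**Figure D5:**
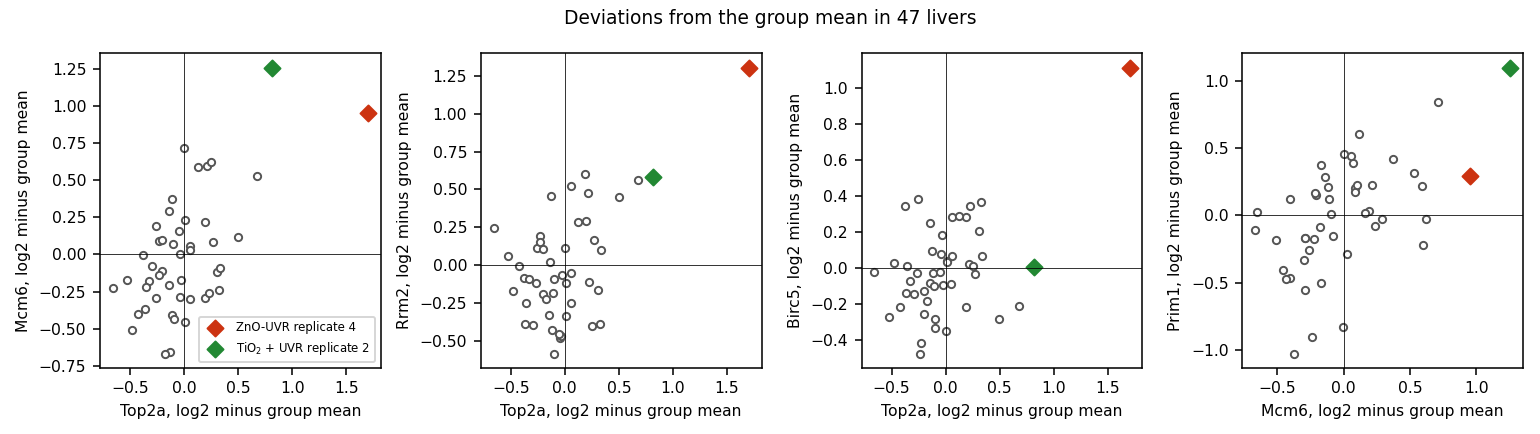
Deviations from the group mean on the log2 scale of 4 pairs of genes in the 47 livers, 1 circle each, with ZnO-UVR replicate 4 in red and TiO2 + UVR replicate 2 in green. Top2a and Birc5 (r = 0.498) lose their relation without the red point (r = 0.0647), while Mcm6 and Prim1 (r = 0.567) keep it (r = 0.57).

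The genes most like each member over the 47 livers, by r of the deviations among 6888 genes, were mostly outside the cell cycle lists. Top2a came closest to Cd24a (r = 0.779), Cenpf (0.741), a kinetochore protein, and Hmmr (0.735), a spindle protein, and 8 of the 77 other cell cycle genes were among its 50 most similar genes, against 3 without ZnO-UVR replicate 4. Mcm6 was nearest to Wdhd1 (0.70), a replisome protein, then Pnpla3 (0.66) and Rarb (0.653). Birc5 was nearest to Slc4a1 (0.688), Pkhd1l1 (0.626) and Mcpt4 (0.601). Aurkb was nearest to Slc45a4 (0.647), Gpc6 (0.637) and Fzr1 (0.598), an activator of the anaphase-promoting complex. Rrm2 was nearest to Vps8 (0.599), Cd300ld (0.594) and Top2a (0.571). Without ZnO-UVR replicate 4 the nearest were Hmmr (0.627) for Top2a, Galnt6 (0.532) for Birc5 and Frk (0.62) for Rrm2. Slc45a4 (0.687) stayed nearest to Aurkb, and Wdhd1 (0.651) came after Rarb (0.686) for Mcm6. Over all livers the 50 most similar genes held 5 cell cycle genes for Birc5, 4 each for Rrm2 and Mcm6 and 3 for Aurkb. Without that liver they held 1 each for Birc5, Rrm2 and Aurkb and 3 for Mcm6. Cell cycle genes made up 77 of all 6888 genes compared.

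Prim1, Tk1 and Cdk1, like Birc5, had no cell cycle gene among their 3 nearest. Of these 3 genes, Prim1 and Tk1 were called in a comparison of the main fit and Cdk1 was not. Prim1 was nearest to Cwc27 (r = 0.721), Rtp4 (0.703) and Ap2b1 (0.693). Tk1 was nearest to Dpys (0.768), an enzyme of pyrimidine breakdown, then to Gpt (0.749), an aminotransferase of hepatocytes, and Cnot1 (0.743). Cdk1 was nearest to AY358078 (0.707), Vmn1r217 (0.698) and Ccdc42 (0.653). For each of the 3 genes the 50 most similar genes held 1 or 2 of the 77 other cell cycle genes, which were among 6888 genes compared.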

How the data were processed

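Liver RNA of 47 mice was hybridised to 1 Mouse Gene 1.0 ST array (Affymetrix) each. The deposited table holds log2 values that the authors made with RMA (robust multi-array average), a method listed in the submitters' processing notes too; whether their removal of batch effects is in these values is not given in the sources used here. Of 16383 probesets 6568 were controls and 9815 transcripts were tested. Symbols came from the platform annotation and were updated through RefSeq (7421 of 7450 transcripts with 1 symbol matched, 511 had several, 1854 none). Samples were grouped by sunscreen and UVR as labelled.

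limma 3.58.1 (R 4.3.3) was fitted to all arrays, with group and, after the study's batches of 1 chip per group, the replicate number as a block; the labels do not state that the number marks a batch. Benjamini-Hochberg adjustment ran over all transcripts, and an adjusted p under 0.1 was called. The p-values measure the spread between mice, not between cages. The paper describes 1 shared cage per treatment group, and the sources disagree on housing. Where a group shared 1 cage, treatment and cage cannot be told apart. Correlations used 100000 permutations, two-sided (Python 3.11.15, numpy 2.4.6), over 28 pairs because Ccnb1 was not analysed here. The scripts were tested on simulated data. Arrays have no read depth; their number limits the precision, and 5 of the 8 genes are dimmer than the median transcript. Alternatives were no block, quantile normalization, the compared groups alone, array weights, dim transcripts left out, adjusted p under 0.05, the array slope as a covariate, the mean of all probesets, and each array left out; leaving out ZnO-UVR replicate 4 throughout was chosen after seeing the data.

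All 8 measured genes are named. From each list the called genes are named, up to 5 per comparison by smallest p, and for each member the 3 genes with the highest r; other names were chosen after their values were seen. The members and lists were chosen with earlier results of these data known.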

Additional observations from a re-analysis of the deposited data

Results flagged for a closer look

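In 64 sets of livers, 1 gene in 1 group each, 9 had a highest or lowest liver far from the rest of its group; chance alone gives about 1 in 20. ZnO-UVR replicate 4 accounted for 4 of them, with Top2a at 5.9957, Rrm2 at 6.021, Birc5 at 5.9889 and Mcm6 at 6.9813 on the log2 scale, each above all other ZnO-UVR livers. Mcm6 was also far above its group in TiO2 + UVR replicate 2, at 7.2492 against 5.54 to 5.99 in the others. Cdk1 was high in ZnO + UVR replicate 1, at 4.3714 against 3.87 to 4.01, and in Organic-UVR replicate 1, at 4.5109 against 3.75 to 4.02, the array with the lowest slope. Aurkb was low in TiO2 + UVR replicate 4, at 4.6793 against 5.24 to 5.43. Prim1 was low in Organic + UVR replicate 4, at 4.9651 against 5.88 to 6.16, and without that liver the Prim1 difference of Organic + UVR from Control-UVR was -0.87 (limma adjusted p = 0.228).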

How the results depend on the processing

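The 28 results followed here were the differences with an unadjusted p under 0.05 in limma and the 5 pairs with an adjusted p under 0.05. All kept their sign under their 680 alternatives. Picked that way, they had little room to change sign. Neither a stricter threshold nor the mean of all probesets could change the sign of these differences. The count of called genes, 1 in the main fit unless stated, changed as follows. Without the replicate number ("no replicate block"), TiO2 + UVR against Control-UVR had 0 (Prim1 adjusted p = 0.193 in limma), and the counts of the other comparisons did not change. Whether the numbers pair the livers was checked: livers with the same number had a mean correlation of deviations of 0.0993 to 0.192 by number, against -0.0366 to -0.0123 with livers of other numbers, while single pairs ran from -0.508 to 0.746. The labels do not tie the number to a batch and not every pair was over 0.1, so whether the numbers are the study's batches was not settled. In fits of the compared groups alone the count was 0 for TiO2 + UVR, Organic-UVR and Organic + UVR against Control-UVR and for TiO2 + UVR against Control + UVR. At an adjusted p under 0.05 it was 0 for both TiO2 + UVR comparisons. Quantile normalization gave 2 in Organic-UVR (Prim1 and Tk1), 0 in Organic + UVR and, for TiO2 + UVR against Control-UVR, 1 that was Tk1 and not Prim1 (Prim1 adjusted p = 0.129), and 1 (Tk1) instead of 0 in Organic + UVR against Control + UVR. Array weights gave 3 in TiO2 + UVR (Prim1, Tk1 and Cdk1), 2 in Organic-UVR, 2 in Organic + UVR and 1 (Prim1) instead of 0 in Control + UVR. Leaving out dim transcripts gave 2 in Organic-UVR and 1 instead of 0 in Control + UVR. With the array slope as a covariate the count was 2 in TiO2 + UVR, Organic-UVR and Organic + UVR against Control-UVR and 1 instead of 0 in Organic + UVR against Control + UVR. Leaving out 1 array gave 0 to 1 in Control + UVR and TiO2 + UVR against Control-UVR, 1 to 2 in Organic-UVR, 0 to 2 in Organic + UVR and 0 to 1 in TiO2 + UVR against Control + UVR. The Prim1 call was lost in TiO2 + UVR without Control-UVR replicate 1, 4 or 6 or TiO2 + UVR replicate 4, 5 or 6 (adjusted p 0.121 to 0.217), and in Organic + UVR when its own replicate 4 was left out, or replicate 4 or 6 of Control-UVR (0.119 to 0.228). The Tk1 call was lost without Control + UVR replicate 1, 3, 4, 5 or 6 or TiO2 + UVR replicate 1, 3, 5 or 6 (0.103 to 0.232). Of the 5 correlated pairs of the main analysis, 2 remained past the threshold without ZnO-UVR replicate 4, chosen after seeing the data (2 of all 28 pairs). Without the 2 farthest livers 1 of the 5 remained, Mcm6 and Prim1, and 2 of all 28 pairs passed, the other being Aurkb and Mcm6. The cause of these changes was not tested.

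The block rests on a number that the labels do not tie to a batch. Intervals of single differences have half-widths of 0.27 to 0.50 on the log2 scale, and larger differences can still miss the threshold after adjustment, as for Prim1 in Control + UVR. The Prim1 calls in TiO2 + UVR and Organic + UVR and the Tk1 call were each lost when certain single livers were left out.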
